A study of Mus musculus with 14 samples.

Results

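Bivalent promoters that carried Ezh2 in control mouse embryonic stem cells are described here across 5 antibodies, before and after knockdown of Smarcb1. A promoter was the window of 1 kb on each side of the transcription start site (TSS) of a protein-coding gene, on the autosomes and chromosome X of mm10. It was counted when that window overlapped, by at least 1 bp, an H3K4me3 island, an H3K27me3 island and an Ezh2 peak in the control libraries. The rule found 1360 promoters among 21755, which is 6.25% of them. They were 29.2% of the 4654 promoters that held both histone marks in control. The remaining 3294 bivalent promoters had no Ezh2 peak, and serve as the nearest comparison.

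The cells were 81K1, a line made from OG2 embryonic stem cells. A cassette for an anti-Smarcb1 shRNA, induced by doxycycline, sits at the Rosa26 locus of a single clone, K1, and both groups carry it. Control cells received no doxycycline. Knockdown (kd) cells received 1 µg per ml every day for 72 h, and all cells grew in medium with leukaemia inhibitory factor. The series holds 14 samples, of which 4 are inputs, and chromatin immunoprecipitation with 5 antibodies gave 10 libraries, a single one for each antibody in each condition. Without replicates, no test between conditions is possible, and a doxycycline effect cannot be told apart from an effect of the knockdown. The lists hold no measure of Smarcb1 itself, so the knockdown was not checked here.

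For Ezh2 and Smarca4 the lists give peaks with a score, and for the histone marks they give islands with a p-value. Both grow with the number of reads. The labels give one nominal depth for all samples but the lists hold no read counts, so the depth of each library is unknown and a difference between conditions may include a difference between libraries. Ezh2 peaks numbered 6706 in control and 5364 in kd, and 45.93% of the control peaks lay at least 50% in repeat-masked sequence against 3.24% in kd. Smarca4 gave 78960 and 72126 peaks, and H3K27me3 22900 and 18311 islands. H3K27ac islands numbered 38737 and 50700, and H3K4me3 islands 25873 and 33128. As a check of the cell type, 9 of 10 stem cell markers carried H3K4me3 in both conditions, against 57% of all promoters in control and 60.9% in kd. The exception was Esrrb, whose annotated gene start had no H3K4me3. H3K27ac was called at 6 of the 10 in control and 9 in kd, and H3K27me3 at 2 in each condition. Ezh2 was called at none of the 10, but in control it was called at only 7.19% of all promoters.

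In a bivalent promoter, H3K4me3, which marks the starts of active genes, lies together with H3K27me3, the mark of Polycomb repression. Such promoters are known from stem cells, where they belong largely to regulators of development that are silent but ready to be switched on. Ezh2 is the catalytic subunit of Polycomb repressive complex 2, which writes H3K27me3 and is drawn to unmethylated CpG islands. Smarca4 is the ATPase of the BAF chromatin remodelling complexes, of which Smarcb1 is a core subunit. BAF complexes can remove Polycomb complexes from chromatin, and H3K27ac, which cannot occupy the same lysine as H3K27me3, marks active promoters and enhancers.

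The promoters share a sequence composition that the rule did not use. Their 2001 bp windows held a median of 119 CpG dinucleotides (24 to 267), against 92.5 at bivalent promoters without Ezh2, 88 at the 7755 promoters with H3K4me3 and no H3K27me3, and 62 over all promoters. Median GC content was 59.7%, against 56.2% at bivalent promoters without Ezh2 and 51.3% over all promoters. An observed to expected CpG ratio of 0.6 or more was found at 73.2% of the promoters and at 51.2% of bivalent promoters without Ezh2. Shown next are the 250 bases before the RefSeq start (GRCm38.p6) of 5 of them, 5′ to 3′ on the gene's strand with every CG in capitals. Of the 1360, 689 had a RefSeq start within 100 bp of the TSS, and stretches that touch an annotated exon were passed over. Among those left, Trank1 (chr9:111311489-111311738, plus strand) had the highest Ezh2 score, Necab2 (chr8:119446469-119446718, plus strand) and Prdm16 (chr4:154636874-154637123, minus strand) had the lowest p-values of promoters with H3K27ac in kd alone, Card10 (chr15:78803043-78803292, minus strand) had the largest decrease of the Smarca4 score, and Adarb2 (chr13:8202616-8202865, plus strand) had the fewest CpG in its window.
Trank1: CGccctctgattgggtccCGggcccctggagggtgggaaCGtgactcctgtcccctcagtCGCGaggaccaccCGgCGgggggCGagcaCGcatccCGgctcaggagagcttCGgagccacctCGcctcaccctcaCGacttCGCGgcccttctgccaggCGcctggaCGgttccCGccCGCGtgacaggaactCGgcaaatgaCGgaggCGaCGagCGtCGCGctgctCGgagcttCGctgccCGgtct
Necab2: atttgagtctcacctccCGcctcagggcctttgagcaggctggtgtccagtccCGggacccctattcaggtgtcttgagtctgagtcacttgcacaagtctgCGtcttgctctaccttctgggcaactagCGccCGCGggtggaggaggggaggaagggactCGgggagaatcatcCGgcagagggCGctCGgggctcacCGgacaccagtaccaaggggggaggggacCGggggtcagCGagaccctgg
Prdm16: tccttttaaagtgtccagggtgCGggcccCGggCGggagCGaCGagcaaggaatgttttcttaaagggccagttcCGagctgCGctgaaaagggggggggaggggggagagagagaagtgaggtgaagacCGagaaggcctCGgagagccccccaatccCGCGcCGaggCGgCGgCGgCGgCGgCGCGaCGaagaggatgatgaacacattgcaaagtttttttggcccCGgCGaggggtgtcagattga
Card10: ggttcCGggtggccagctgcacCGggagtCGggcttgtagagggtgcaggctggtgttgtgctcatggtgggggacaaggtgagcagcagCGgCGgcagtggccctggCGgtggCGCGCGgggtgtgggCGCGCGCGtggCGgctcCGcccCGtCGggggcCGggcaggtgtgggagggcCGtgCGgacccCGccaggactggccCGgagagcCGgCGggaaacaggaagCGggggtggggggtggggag
Adarb2: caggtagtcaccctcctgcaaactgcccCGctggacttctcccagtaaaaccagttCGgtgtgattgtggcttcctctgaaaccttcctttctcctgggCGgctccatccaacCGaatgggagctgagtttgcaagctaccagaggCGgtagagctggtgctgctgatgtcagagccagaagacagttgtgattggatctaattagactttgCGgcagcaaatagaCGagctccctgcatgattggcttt

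The 5 stretches held 30, 13, 22, 25 and 7 CpG in the order printed, and the 2001 bp windows around those starts held 212, 134, 228, 153 and 40. In the 300 bases from 250 before to 50 after the annotated TSS, read from the genome for all promoters, the median was 24 CpG against 20 at bivalent promoters without Ezh2 and 11 over all. The letters GGGCGG, the core of the motif bound by Sp factors, were found on either strand in 68.3% of these stretches, in 67.5% of bivalent promoters without Ezh2 and in 43.4% of all promoters. CGCGCG was found in 29%, 24.3% and 13.8%, in the same order. GAGAGAG, again on either strand, was found in 15.5% (95% Wilson interval 13.7 to 17.5) against 9.9% (8.92 to 11) and 10.2%. CCAAT was found in 31%, 34.2% and 38.9%, and TATAAA in 7.94%, 6.38% and 12.7%, in that order. CACGTG was found in 8.53%, 9.59% and 7.81%. CGCGCG and GGGCGG can share letters, and a match of letters does not show binding.

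The genes were long and were often regulators of development. Their median length was 44136 bp, against 28748 bp for bivalent promoters without Ezh2 and 17414 bp over all genes. Of 24 gene lists, homeobox factors outside the Hox clusters held the highest share, with 75 of 130 genes (57.7%), whereas the share over all promoters was 6.25%. Among T-box factors it was 8 of 17, among Sox factors 8 of 19, among Gata factors 3 of 6, among Fox factors 18 of 44 (40.9%) and among basic helix-loop-helix factors 24 of 61 (39.3%). Signalling lists held 24 of 56 Wnt genes (42.9%), 23 of 74 TGF-beta and BMP genes (31.1%), 12 of 39 FGF genes and 7 of 25 Hedgehog and Notch genes. For the nervous system, 33 of 83 axon guidance genes (39.8%) were among them. A list of neurotransmitter receptors and channels, matched by gene symbol, contributed 78 of 271 (28.8%). It also took in transporters and the serine protease genes Htra1, Htra3 and Htra4, so its counts are not of receptors and channels alone. Developmental zinc finger factors held 34 of 100, cadherins and protocadherins 20 of 104 (19.2%) and Cdk inhibitors 3 of 8.

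Other lists stood at the opposite end. None of 25 pluripotency genes, 79 ribosomal protein genes or 1093 olfactory receptor genes was included, which for the last allows a share of up to 0.35% (Wilson). Blood and immune genes held 9 of 240, muscle and heart structure genes 1 of 39 (Myl3) and cell cycle genes 1 of 65 (Ccnd2). Of 33 BAF subunits 4 were included, namely Bcl11a, Bcl11b, Dpf3 and Smarca2, and the list of 32 Polycomb subunits contributed Cbx8, Pcgf5 and Phf19 among others. The Polycomb list did not contain Bmi1, a PRC1 subunit whose promoter was also among the 1360. Altogether 399 of the 1360 (29.3%) were on at least 1 list, and the others were on none. Of all 21755 promoters, 2667 were on a list, with the 1093 olfactory receptor genes among them.

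**Figure D1:**
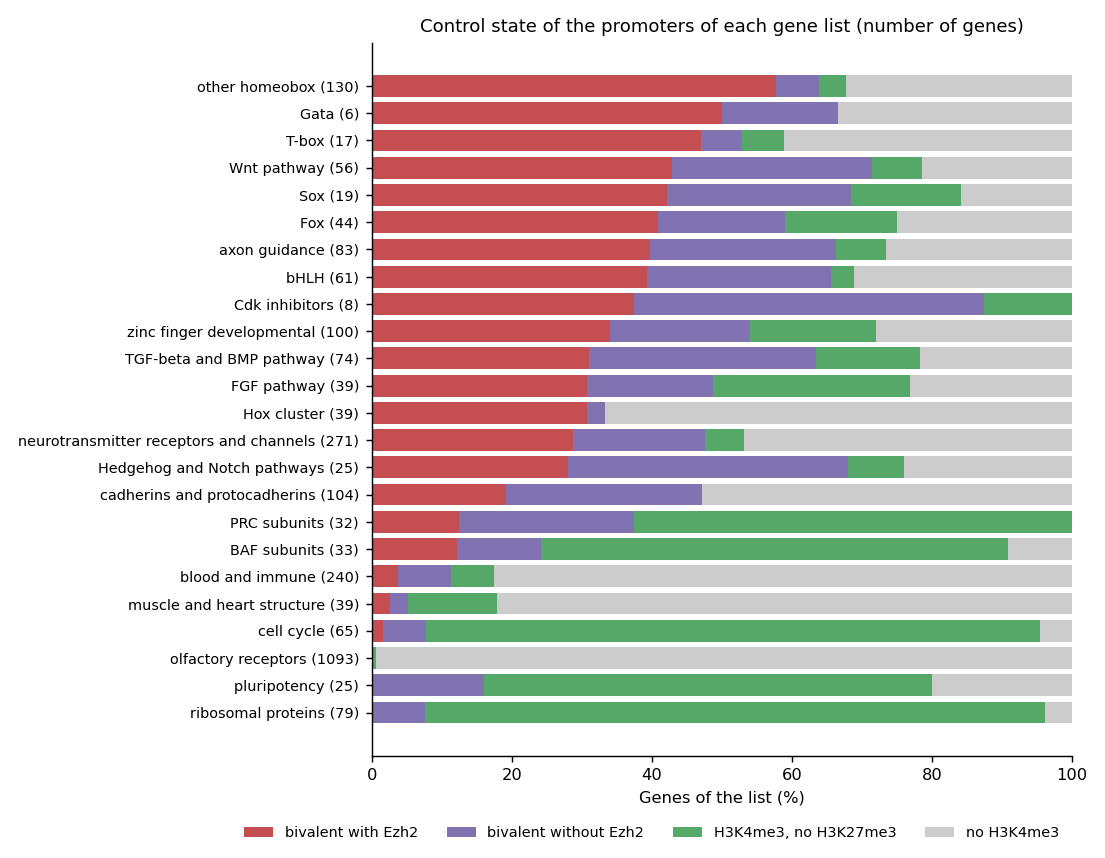
Control state of the promoters in each of 24 gene lists, as the percentage of the genes of the list, with the number of genes in brackets. Red is bivalent with Ezh2, and it reaches 57.7% for homeobox genes outside the Hox clusters and is absent for pluripotency, ribosomal and olfactory receptor genes.

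The Hox clusters show how the rule splits one family. Of 39 Hox genes, 12 were included, 1 was bivalent without Ezh2 and 26 had no H3K4me3 island at the annotated start. The included Hox promoters lay in very long domains. A single control H3K27me3 island, chr2:74642601-74780600, held Hoxd1, Hoxd3, Hoxd4, Hoxd8, Hoxd9 and Hoxd13, and was 138000 bp wide in control and 135200 bp in kd. Another, chr6:52141201-52329800, held Hoxa4, Hoxa5, Hoxa13, the neighbouring homeobox gene Evx1 and 5730596B20Rik, and its 188600 bp were covered by 3 islands of 178200 bp in total in kd. The promoters are therefore not independent of each other. They lay in 1298 islands, 53 of which held several of them (115 promoters), and 62 promoters shared their strongest Ezh2 peak with another.

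Long H3K27me3 domains set the promoters apart from other bivalent promoters, although the rule asked only for 1 bp. The median control island was 16000 bp wide (800 to 260400), and 77.7% of the promoters lay in islands of at least 10000 bp against 37.8% of bivalent promoters without Ezh2. For islands of at least 20000 bp the shares were 40% and 12.9%. In 1309 of the 1360 windows the island covered every base. H3K4me3 islands were short in comparison, with a median of 2200 bp, and covered the TSS in 95.1%. Ezh2 peaks had a median width of 698.5 bp and their centres lay a median of 349.8 bp downstream of the TSS, near the 352.5 bp for H3K4me3 islands.

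The control Ezh2 score, which is part of the rule, had a median of 107 and ran from 13 to 1370. The highest belonged to Hoxd9, a patterning factor of the body axis and limbs (chr2:74697727, 1370), followed by Fam155a (1185), the lung and gut mesenchyme factor Foxf1 (1185), the forebrain homeobox factor Emx2 (1121), Trank1 (1067), Fam43b (1028), the clock factor Npas2 (1009), Gm4881 (959), the peptidase gene Trhde (946) and the transporter gene Slco3a1 (935). The lowest were the phosphatase gene Ptprj, the manganese exporter gene Slc30a10 and the heart factor Tbx20, all at 13, and Gm11549 and Svep1 at 14. At the edge of the rule, the overlap with the Ezh2 peak was 1 bp for Isl2 and 19 bp for Gfra1. Just outside it, a peak ended 30 bp short of the window of Mllt3, 47 bp short of Otop1 and 48 bp short of Chd7. In all, 15 promoters had under 100 bp of Ezh2 in the window, and 68 bivalent promoters outside the rule had a peak within 1000 bp.

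When the 1360 were split into quartiles by the control Ezh2 score, other measures followed its order. Median H3K27me3 island width was 12800, 13400, 18100 and 24800 bp from the lowest to the highest quartile, and the median CpG number was 106, 113, 121 and 134. The median control Smarca4 score ran the other way, at 229, 222.5, 214.5 and 181. These are descriptions of promoters chosen in part on that score.

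After the knockdown, nearly all of these promoters were still called for the 3 marks that define them. H3K4me3 was called at 1353 (99.5%), H3K27me3 at 1356 (99.7%) and Ezh2 at 1340 (98.5%), and 1331 (97.9%, 95% Wilson interval 96.95 to 98.51, counting error only) had all of them. Over all promoters, the share called in kd was 60.9% for H3K4me3, 29.4% for H3K27me3 and 12.7% for Ezh2. The share of control calls missing in kd, over all promoters with the call, was 1.38% for H3K4me3, 23.3% for H3K27me3 and 3.96% for Ezh2. The last share counts the 1360 as well, and among the 204 other promoters with Ezh2 in control 42 (20.6%) had no peak in kd. For H3K27me3 the promoters differed from other bivalent ones: 4 of 1360 were without it in kd (0.294%, 0.114 to 0.754) against 796 of 3294 without Ezh2 (24.2%, 22.7 to 25.7). Their control islands were also stronger, with a median −log10 p of 323, the value set where p was listed as 0, against 87. The sets were not compared at equal island strength.

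**Figure D2:**
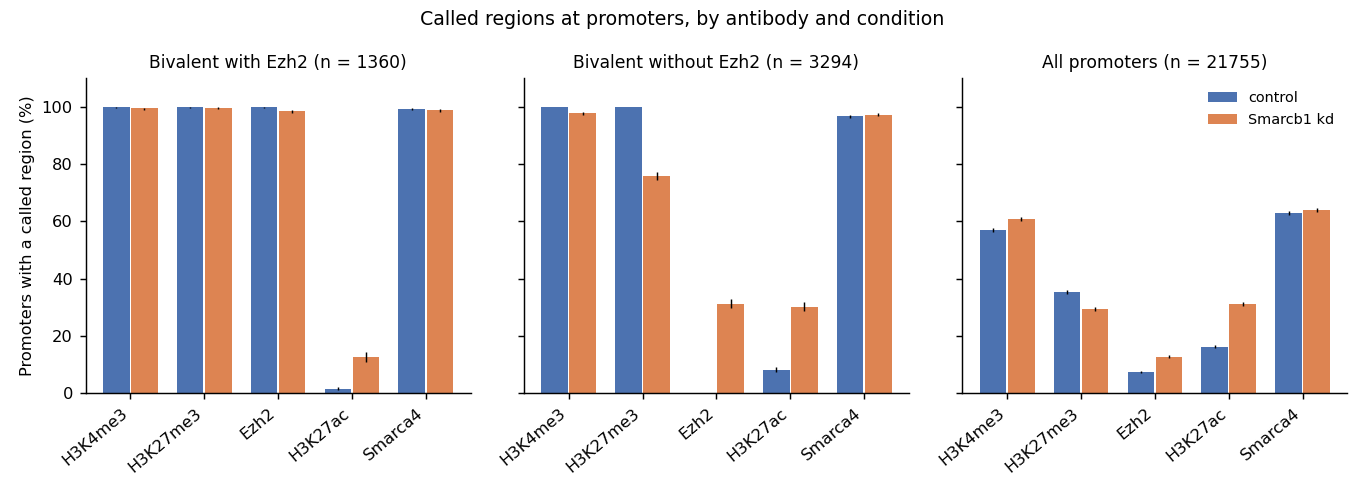
Percentage of promoters with a called region for each antibody in control (blue) and Smarcb1 kd (orange), with 95% Wilson intervals that cover counting error only, for 1360 bivalent promoters with Ezh2, 3294 without and all 21755. H3K4me3, H3K27me3 and Ezh2 in control are 100% in the left panel by the rule, and H3K27ac there is 1.4% in control and 12.5% in kd.

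The same rule applied to the kd lists gave 2623 promoters. They included 1331 of the 1360 control promoters (97.9%), which made up 50.7% of the kd set. Of the other 1292, 1177 had no Ezh2 peak in control, 279 had no H3K4me3 and 21 had no H3K27me3. Ezh2 was called in kd at 1025 (31.1%) of the bivalent promoters that had no control peak.

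Few promoters lost one of these calls. The 4 without H3K27me3 in kd were Cfap77, Rai1, a gene affected in a neurodevelopmental syndrome, the RNA-binding protein gene Igf2bp3 and the ubiquitin ligase gene March9. Their control islands were both narrow and wide, at 1400 bp at Cfap77, 25800 bp at Rai1, 2400 bp at Igf2bp3 and 16600 bp at March9. The 7 without H3K4me3 in kd, picked after the values were seen, were Hoxd3 and Hoxd4, which share 1 start region, Sox14, Isl2, Wnt16, 5730596B20Rik and the RNA editing enzyme gene Adarb2. Their median CpG number was 63 and none of the 7 carried H3K27ac in kd. The 20 without Ezh2 in kd had a median control Ezh2 score of 70.5 and 89.5 CpG. The highest scores among them were 145 at the kinase gene Pak1, 135 at the heme synthesis gene Uros, 128 at Ggn, 116 at Cfap77, 96 at the amino acid transporter gene Slc7a6, 81 at the myosin gene Myo1e and 79 at Apoo and Fam90a1b, which share a peak. H3K27ac was called in kd at 9 of these 20 (45%, 25.8 to 65.8). Among the 1340 that retained Ezh2 it was called at 161 (12%, 10.4 to 13.9). Of the 9, Pak1, Uros and Slc7a6 also carried H3K27ac in control, so the 45% is not a share of gains. With H3K27ac in kd alone, 147 of 153 promoters retained Ezh2, against 1178 of 1188 without H3K27ac in either library. The control Ezh2 peak was repeat-masked over 100% of its length at Cfap77, 96.24% at Uros and 74.55% at Myo1e. At the other genes named for their score the masked share ran from 12.85% at Pak1 to 39.44% at Apoo.

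Where Ezh2 was called in both libraries, its score was higher in kd at 1287 of 1340 promoters (96%), with a median of 107 in control and 349 in kd. The median ratio of kd to control was 2.83, and the middle 50% of ratios ran from 2.01 to 4.50. Over all 1502 promoters called in both libraries the score was higher in kd at 95.4% and the covered length at 95.5%, and the 1340 are most of these. Of the 162 others, 146 (90.1%) had a higher score in kd, so the difference was not particular to these promoters, which were also chosen on the control score. The peaks were wider in kd as well, and their median share of the window was 688 bp in control and 1120 bp in kd. The peak covered the TSS at 729 promoters in control and at 1051 in kd.

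Single genes show the spread of the Ezh2 scores. Gata6, an endoderm factor, had 81 in control and 1042 in kd. Sox21, a neural factor, had 187 and 890, and Fgf18, a growth factor gene, had 28 and 386. Cdh22, a cadherin gene, stood at 637 and 1578. Among the 10 highest control scores 3 were higher and 7 lower in kd. These 10 were picked for their control score, so nothing is read from the direction. Hoxd9 was lower, at 1370 and 1027, as were Emx2 (1121 and 544) and Fam155a (1185 and 558), while Trank1 was higher (1067 and 2080).

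H3K27me3 and H3K4me3 were also compared by extent. The covered length of the window was higher in kd at 1.7% of promoters for H3K27me3 (8.92% over all promoters called in both) and at 22.8% for H3K4me3 (17.8% over all). For H3K27me3 it was lower at 5.16% (21.4% over all) and for H3K4me3 at 42.1% (35.9% over all). Since 1309 windows were covered in full by H3K27me3 in control, this measure could hardly be higher in kd there. The whole H3K27me3 island was narrower in kd at 777 of 1356 promoters (57.3%), close to the 59.3% over all promoters called in both, with medians of 16000 bp in control and 14800 bp in kd. At the TSS itself, H3K27me3 covered 99.3% of the promoters in control and 95.7% in kd. Necab2, a neuronal calcium-binding protein gene, went from an island of 91800 bp to 5800 bp. The DNA methyltransferase gene Dnmt3a went from 55400 bp to 6800 bp, and the hedgehog ligand gene Ihh from 98400 bp to 35200 bp. Each width is that of the strongest island at the window, and other kd islands within the control domain were not added. Cdkn1c, an imprinted Cdk inhibitor gene, stayed at 207600 and 207400 bp. Island p-values of H3K27me3 were listed as 0 for 1039 promoters in control and 477 in kd, so they were not compared. Those of H3K4me3 were lower in kd, a stronger call, at 92.2% of the promoters called in both (69.1% over all). Its covered length was thus more often lower in kd while its call was mostly stronger.

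**Figure D3:**
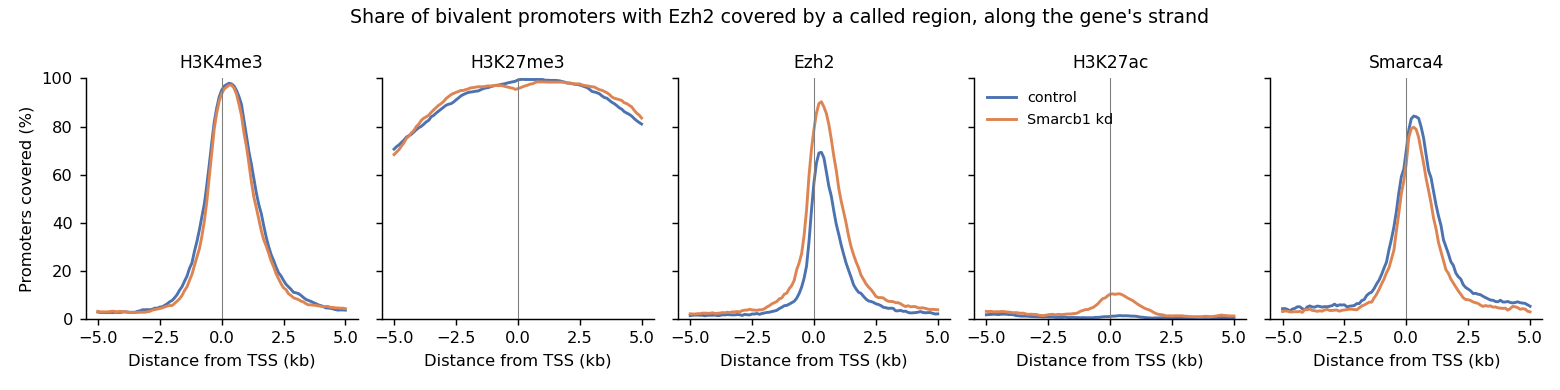
Percentage of the 1360 promoters covered by a called region at each position from 5 kb before to 5 kb after the TSS, along the gene's strand, in control (blue) and kd (orange). Ezh2 covers 56.8% of promoters at the TSS in control and 78.9% in kd, and Smarca4 covers 83.4% and 75.4% at 500 bp downstream.

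Smarca4, which the rule did not use, was called at nearly every promoter. It was present at 1352 in control (99.4%) and 1346 in kd (99%), against 63% and 64% of all promoters. Bivalent promoters without Ezh2 were close, at 96.7% and 97.3%, and promoters with H3K4me3 and no H3K27me3 were at 92.6% and 96.2%. It was called in control alone at 13 and in kd alone at 7, which is 0.956% and 0.515% against 2.72% and 3.72% over all promoters. Zfp536, a zinc finger gene with Ezh2 scores of 461 in control and 935 in kd, was the single promoter without a Smarca4 peak in either library. Those with a peak in control alone included Hoxd8 and Rasgef1c (score 190 each), the neural factor Pou3f3 (118), the thyroid and kidney factor Pax8 (116) and Pappa (94). Those with a peak in kd alone included Dpp10, a potassium channel partner (161), Bmi1 and 5730596B20Rik (101 each).

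The Smarca4 score was mostly lower in kd at these promoters. Among the 1339 called in both libraries, it was lower at 985 (73.6%, 95% Wilson interval 71.1 to 75.9) and higher at 352 (26.3%), while over all 13116 promoters called in both it was higher at 51.4% and lower at 48.2%. The median score was 213 in control and 150 in kd, and the median ratio was 0.731 (middle 50% from 0.53 to 1.02) against 1.02 over all promoters. Bivalent promoters without Ezh2 lay between, with a lower score at 56.8% (55 to 58.5) and a median ratio of 0.906. Promoters with H3K4me3 and no H3K27me3 went the other way, with a lower score at 36.9% (35.8 to 38) and a median ratio of 1.19. The covered length behaved alike, being higher in kd at 32.1% of the promoters and at 47.5% of all promoters. These intervals treat promoters as independent draws from 1 pair of libraries and say nothing of the spread between cultures. The Smarca4 peaks of kd lay at least 50% in repeat-masked sequence more often than those of control (19.62% against 9.47%), and without such regions the score was lower at 73.5% of the promoters and at 48.2% of all.

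The Smarca4 scores differ in strength between promoter sets, so promoters were also split by the sum of both scores. In the quartiles of all promoters from the weakest to the strongest sum, the score was lower in kd at 68.7%, 73.3%, 74.8% and 75.6% of the bivalent promoters with Ezh2. For all promoters the shares were 48.1%, 48.7%, 47.1% and 48.9%, and for bivalent promoters without Ezh2 they were 51.9%, 57.6%, 56.5% and 58.8%. The intervals of the bivalent promoters with Ezh2 did not overlap those of either set in any quartile. The 1257 promoters that met the rule in kd only, and had a Smarca4 peak in both libraries, had a lower score at 70.8% with a median ratio of 0.749.

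**Figure D4:**
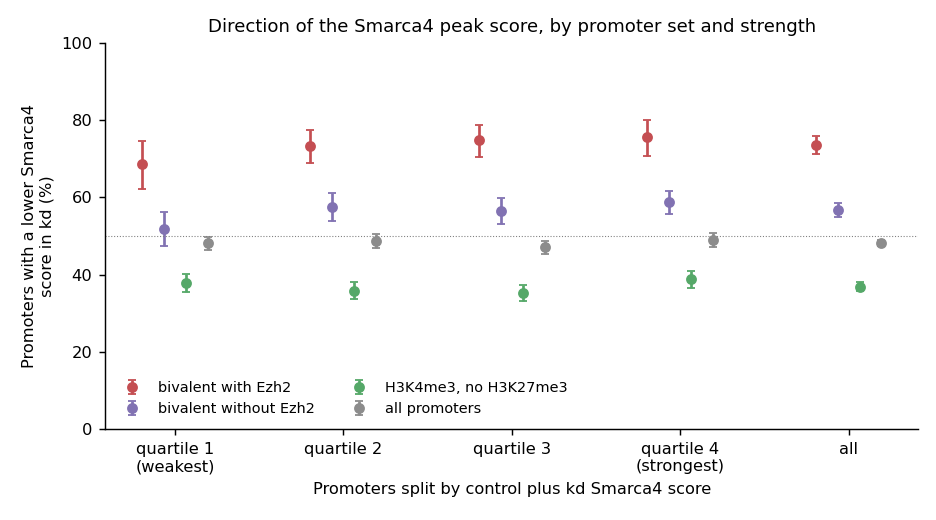
Percentage of promoters with a lower Smarca4 score in kd than in control, for 4 promoter sets, in quartiles by the sum of both scores and over all, with 95% Wilson intervals (counting error only). Bivalent promoters with Ezh2 (red) lie highest in every quartile, from 68.7% to 75.6%.

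By size, the Smarca4 score in kd was at most 50% of control at 298 promoters (22.3%) and at least 2 times control at 28 (2.09%), against 11.3% and 11.7% of all promoters called in both. At bivalent promoters without Ezh2 the shares were 14.2% and 6.92%. The largest decreases, picked after the values were seen, were at the spinophilin gene Ppp1r9b (890 and 292), the serine protease gene Htra1 (629 and 62), the sensory neuron homeobox gene Prrxl1 (682 and 136), the signalling scaffold gene Card10 (744 and 230) and the Wnt antagonist gene Sfrp1 (925 and 422). The largest increases were at the histamine receptor gene Hrh3 (380 and 934), Cacng2 (341 and 804), Sez6 (504 and 898), Syndig1l (764 and 1070) and Gm3739 (211 and 512). In both groups the Ezh2 score was higher in kd at each gene, for example 167 and 713 at Htra1 and 68 and 173 at Hrh3. It was higher in kd at 96% of the promoters with Ezh2 in both libraries, so this is not particular to either group. Of the gene lists, counting promoters called in both libraries, developmental zinc finger factors had a lower Smarca4 score at 27 of 34 promoters and Wnt genes at 19 of 24. Axon guidance genes had it at 25 of 33 and homeobox genes outside the Hox clusters at 51 of 70. The list of receptors and channels, which also holds Htra1 and other genes of neither class, was at 58 of 78. Cadherins and protocadherins were at 11 of 20, T-box factors at 4 of 8 and Hox genes at 7 of 11. The share over all 1339 was 73.6%, and nothing particular to a list follows from these counts. Foxc1, a forkhead factor, went from 322 to 49, Fgf15 from 370 to 71 and Cxcl14 from 433 to 105, while Bmp1 was higher (82 and 168).

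**Figure D5:**
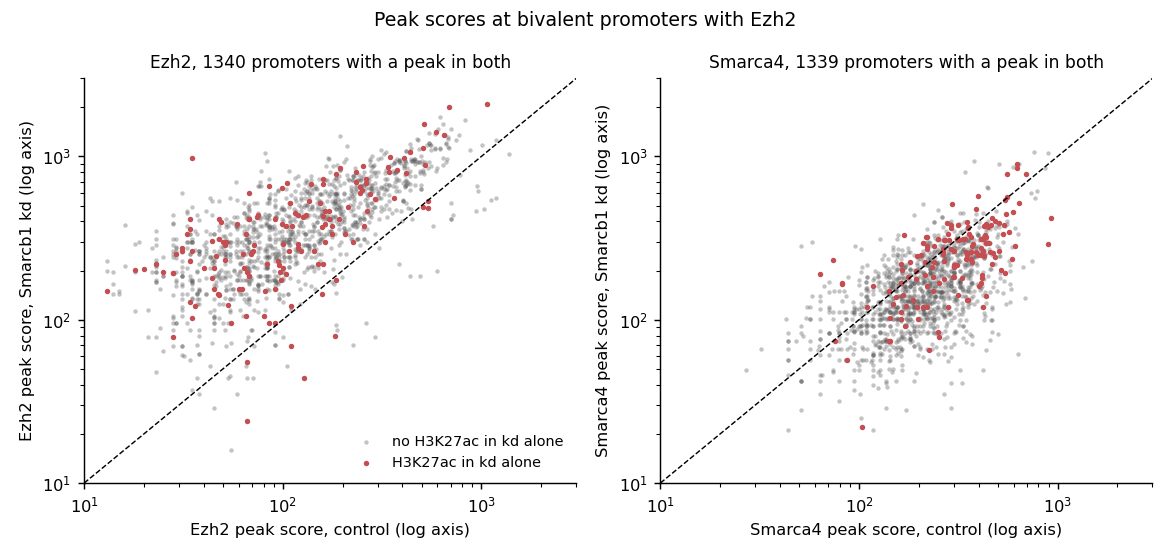
Peak score in kd against control on log axes, for the 1340 promoters with an Ezh2 peak in both libraries (left) and the 1339 with a Smarca4 peak in both (right). Points above the dashed line are higher in kd, which are 1287 for Ezh2 and 352 for Smarca4, and red points carry H3K27ac in kd alone.

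H3K27ac, also outside the rule, was rare in control and more frequent in kd. Only 19 of the 1360 (1.4%, 0.896 to 2.17) carried it in control and 170 (12.5%, 10.9 to 14.4) in kd, against 16.1% and 31.2% of all promoters. These shares depend on the threshold: a stricter one gave 0.682% and 7.31%, and 6.82% in kd alone, and a window of 2 kb on each side gave 2.48% in control. It was called in kd alone at 153 promoters (11.3%, 9.68 to 13), where the background over all promoters was 16.9%, and in control alone at 2 (background 1.85%). Among promoters without H3K27ac in control, the share that carried it in kd was 11.4% (9.82 to 13.2) here, 25.6% (24.1 to 27.2) at bivalent promoters without Ezh2 and 49.9% (48.5 to 51.3) at those with H3K4me3 and no H3K27me3. The gain was thus present at these promoters but less frequent than over all promoters, and the kd list was longer throughout. The 2 promoters with H3K27ac in control alone were Gm3411 and Cfap77.

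The 8 lowest p-values among the 153 were the following. The B-cell and neural factor Ebf1 stood first (3.79e-72), followed by Necab2 (5.76e-42), the potassium channel gene Kcnh3 (1.08e-40), the Wnt receptor gene Fzd2 (1.05e-34), the brown fat and blood stem cell factor Prdm16 (1.38e-33), the zinc finger gene Zbtb10 (2.39e-32), Dnmt3a (7.26e-31) and the calcium channel gene Cacna1i (4.1e-30). These p-values compare reads in the island with the background of that single library. All 8 retained H3K4me3, H3K27me3 and Ezh2 in kd, as did 97.9% of the 1360. Each had a higher Ezh2 score there, for example 123 and 264 at Ebf1 and 415 and 786 at Prdm16, like 96% of the promoters with Ezh2 in both libraries. The Smarca4 score was lower in kd at 6 of these 8, beside 73.6% of the 1339 called in both libraries. Among the 6 were Ebf1 (302 and 182), Fzd2 (533 and 336) and Prdm16 (410 and 249), and the score was higher at Kcnh3 (349 and 397) and Dnmt3a (169 and 331). By list, the 153 included 9 of the 78 on the receptor and channel list, which also holds transporters and protease genes. They included 7 of 34 developmental zinc finger factors, 4 of 24 Wnt genes, 2 of 75 homeobox genes outside the Hox clusters and no Hox gene, beside 11.3% of all 1360.

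The 153 islands were narrower than the H3K27ac islands of kd over all promoters. Their median width was 1600 bp, against 2800 bp over all promoters and 2000 bp at bivalent promoters without Ezh2. The TSS was covered by 123 of them (80.4%), near the 81.7% over all promoters, and 2 lay at least 50% in repeat-masked sequence. H3K4me3 was called in kd at all 153, H3K27me3 at 151 and Ezh2 at 147. Compared with the 1188 promoters without H3K27ac in either library, they held more CpG (median 147 and 115.5), had wider control H3K4me3 islands (3000 and 2200 bp) and had a higher Smarca4 score in control (306.5 and 203) and in kd (248 and 140). The median control Ezh2 score was 99 and 107, and the kd H3K27me3 island was narrower (12600 and 15200 bp). By quartile of the control Ezh2 score, H3K27ac in kd alone was called at 12.4%, 11.8%, 11.5% and 9.41%, and the intervals of the lowest (9.27 to 16.3) and highest quartile (6.75 to 13) overlap. The letters GGGCGG were in 81% of the 153 starts (74.1 to 86.5) and in 66.9% of the 1188 (64.2 to 69.5). The Smarca4 score was lower in kd at 69.1% of the former and 74% of the latter, with intervals that overlap.

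Values of early lineage regulators show how the antibodies combined at single promoters. At T, the mesoderm factor known as Brachyury (chr17:8434423), the Ezh2 score was 278 in control and 628 in kd, the Smarca4 score 126 and 101, and the H3K27me3 island 35600 and 23400 bp wide, with no H3K27ac. At Eomes, a factor of early mesoderm and endoderm (chr9:118478212), the Ezh2 score was 700 and 517 and the Smarca4 score 257 and 308. Sox1, a marker of neural precursors (chr8:12395295), had Ezh2 at 291 and 551 and Smarca4 at 434 and 293, and carried H3K27ac in kd alone (3.97e-19). Its control Ezh2 overlap was 72 bp of the window, against 1454 bp in kd. The Wnt feedback gene Axin2 also carried H3K27ac in kd alone (7.27e-09), with Ezh2 at 69 and 254 and Smarca4 nearly level at 355 and 370.

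Genes of the chromatin complexes themselves were among the promoters. Smarca2, the alternative ATPase of BAF complexes, had Ezh2 scores of 95 in control and 451 in kd and Smarca4 scores of 239 and 83. Dpf3, a BAF subunit of muscle and neurons, had Ezh2 at 573 and 374 and Smarca4 at 282 and 254. Cbx8, which encodes a reader of H3K27me3 in PRC1, lay in an H3K27me3 island of 118200 bp in control and 73600 bp in kd, with Ezh2 at 87 and 284. None of the listed BAF or Polycomb genes carried H3K27ac in kd alone, whereas Bmi1 did (2.79e-21).

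The 17 promoters with H3K27ac in both libraries, named after the values were seen, included the neural RNA-binding protein gene Msi1, the lymphoid factor Ikzf1, the adenylate cyclase gene Adcy6, the remodeller gene Chd3 and the potassium channel gene Kcna7. The island p-value was lower in kd at 13 of the 17, and over all promoters called in both at 80.2%. At Kcna7 it was 2.42e-19 in control and 1.76e-73 in kd, and at Msi1 3.39e-17 and 1.39e-44. Both had a higher Ezh2 score in kd (62 and 144, and 165 and 336), and both retained H3K27me3.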

How the data were processed

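Chromatin immunoprecipitation followed by sequencing was performed by the authors with antibodies to Ezh2, Smarca4, H3K27ac, H3K27me3 and H3K4me3 in control and kd cells, and 10 libraries and 4 inputs were labelled. According to the study's methods, reads were trimmed, aligned to mm10 and filtered for unique alignments with SAMtools 1.9, and the submitters' processing notes name Trim Galore and Bowtie2. Smarca4 and H3K27me3 were immunoprecipitated by a company and the other antibodies in the authors' laboratory. The deposited Ezh2 and Smarca4 lists hold MACS2 peaks with an integer score, taken here as MACS2's peak score, which grows with significance. The lists do not state its definition, so a ratio of scores is not a ratio of signal. The deposited H3K27ac, H3K27me3 and H3K4me3 lists hold SICER islands with a p-value against the background library, which the authors filtered. The methods name input as background and the labels of the inputs name IgG. Nothing was scaled between libraries. The labels give one nominal sequencing depth for all samples, and the reads of each library are not given in the lists. The inputs were not analysed here.

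TSS were the gene starts of 21755 protein-coding genes in GENCODE mouse release M21 (the study's methods name another release), on chromosomes 1 to 19 and X. Overlaps were computed with bedtools 2.31.1 and tested on simulated data. Where several regions met a window, the strongest gave the value. Composition and repeat masking came from GRCm38. Shares have 95% Wilson intervals for counting error. With 1 library per group no test was run. The members, gene lists and comparisons were chosen with earlier results of these data known. Genes were named by rank of the Ezh2 score, by a mark missing or present in 1 condition, by H3K27ac p-value, and alphabetically within gene lists (the first 4), unless stated. The split by summed Smarca4 score and the 3 alternatives for the Smarca4 comparison were added after seeing the data. Results for a few genes are not reported here.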

Additional observations from a re-analysis of the deposited data

How the results depend on the processing

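Each of 11 results was recomputed under 9 alternatives: stricter thresholds (score of 50 for peaks, and −log10 p of 10 for H3K27ac and 20 for the other marks), lists shortened to equal length, regions at least 50% repeat-masked left out, windows of 500 bp or 2 kb, 200 bp of overlap, every annotated TSS, no chromosome X, and 1 promoter per H3K27me3 island. The Smarca4 comparison had 3 further alternatives, chosen after seeing the data. Of 102 values, 87 stayed within the 95% interval of the main value (for the number of promoters, within 1.5 times).

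The stricter threshold gave 0.682% with H3K27ac in control, 7.31% in kd and 6.82% in kd alone, and 98.2% and 96.1% with Smarca4 in control and kd. Over all promoters it gave 15% with H3K27ac in kd alone. Lists of equal length gave 9.62% with H3K27ac in kd, 8.58% in kd alone (13% over all promoters) and 98.9% with H3K4me3 in kd. The 2 kb window gave 2.48% with H3K27ac in control and 97.7% with Ezh2 in kd. The 500 bp window gave 98.1% and 97.1% with Smarca4 in control and kd, and 200 bp of overlap gave 98.8% in control. A lower Smarca4 measure in kd was found at 79.2% with the percentile in the list (52.8% over all promoters) and at 67% with the covered length (51.7%). The cause of these shifts was not tested beyond the fewer regions or shorter windows that the alternatives use.

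No paired analysis was possible because there is 1 library per antibody and condition, which also leaves no replicate to leave out. The reads behind each list are unknown and limit the calls, since a promoter without a called region can still hold signal under the threshold.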
